A study of Mus musculus with 15 samples.

Results

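Actin genes and regulators of the WAVE complex were followed in mouse cortex after repeated head impact. The members were 10 genes, Actb, Actg1, Abi1, Abi2, Baiap2, Wasf1, Cyfip2, Arhgap35, Cfl1 and Pfn2, taken as every listed transcript that GENCODE M21 assigns to one of those gene names. This gave 22 of the 10370 listed transcripts and 10 of the 7740 genes to which the listed transcripts could be assigned. RNA-seq had been run on 15 cortex libraries of male C57BL/6 mice (C57Bl/6J in the study's methods), labelled 12 weeks of age, 1 month after the procedure. The Sham group (n = 7) was anesthetized and handled without impact, and the HF-HI group (n = 8, high-frequency head impact) received repeated head impacts under isoflurane on consecutive days. Both groups received the anesthetic, and no genotype or transgene distinguished them. The genes were chosen by the HF-HI minus Sham values of these same libraries, in which transcripts of Actg1, Baiap2 and Arhgap35 had been seen to differ in opposite directions, so every HF-HI minus Sham difference of a member is given as a description and not as a test.

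Actin is a protein that polymerizes into filaments, and in neurons it fills dendritic spines and growth cones. The WAVE complex, built from a Wasf (WAVE) protein with Abi, Cyfip, Nckap1 and Brk1 subunits, receives signals from the small GTPase Rac and switches on the Arp2/3 complex, which starts new filament branches. Baiap2 (IRSp53) links Rac and the membrane to the WAVE complex, Arhgap35 is a GTPase-activating protein that acts on the cytoskeleton, cofilin (Cfl1) severs old filaments, and profilin (Pfn2) feeds actin monomers to growing ends.

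The actin genes code for nearly the same protein but differ in many coding bases, some silent and some changing an amino acid. The first 60 coding bases of each are shown because they include codons in which the proteins differ. Capitals mark the 9 positions at which they differ, from GRCm38, the assembly also called mm10. Actb lies at chr5:142905627-142905686 and Actg1 at chr11:120348032-120348091, both on the minus strand.
Actb: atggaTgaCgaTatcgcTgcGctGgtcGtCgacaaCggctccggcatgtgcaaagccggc
Actg1: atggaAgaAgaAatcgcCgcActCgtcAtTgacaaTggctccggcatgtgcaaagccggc
Over the whole coding sequence of 1125 bases the genes differed at 128 positions and were identical at 88.62% of bases. Reads that fall within an identical stretch cannot be placed from sequence alone, so the split between Actb and Actg1 could depend in part on the read assignment. The same could hold for any processed copy of these genes. How many reads fall within such stretches was not counted.

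Expression was read on 2 scales. A normalized count is the number of reads given to a transcript divided by the size factor of the library, a measure of its depth. VSD is the deposited log2-like variance-stabilized value, on which low counts are compressed. The listed transcripts held 5798810 to 10582858 reads per library in Sham and 3496103 to 8666307 in HF-HI, and the lowest size factors, 0.501, 0.585 and 0.650, belonged to HF-HI replicates 4, 7 and 2. All 6 excitatory cortical neuron markers were listed, with normalized counts that summed to 9289 to 10553 (Sham) and 9518 to 10807 (HF-HI). HF-HI replicate 2 had the highest sum of the 2 listed choroid plexus markers, Ttr and Enpp2, at 13832 normalized counts against 1972 to 11212 in Sham, while 4 others of that list (Folr1, Kl, Clic6, Kcnj13) were not listed. Of 7 striatal markers 6 were listed, at 3925 to 6471 in Sham and 3092 to 6397 in HF-HI. The smooth muscle genes Acta2, Tagln, Myh11 and Myl9 were not listed. Pdgfrb and Rgs5 of that list summed to 932 in HF-HI replicate 2 (Sham 1001 to 1103). That library was also outside the Sham range for endothelium (949 against 1093 to 1173), oligodendrocyte (30396 against 25874 to 29782) and astrocyte markers (35644 against 36029 to 38598). It lay within the Sham range for excitatory neuron, striatal, microglia and blood markers. In bulk tissue, fewer cells of a type and less RNA per cell cannot be told apart.

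Per kilobase of transcript, Actb was the most abundant member. Its mean over the 15 libraries was 5605 ± 319 normalized counts per kilobase (SD), 2.02 times that of Actg1 at 2776 ± 201. Cfl1 followed at 2380 ± 82.2, then Pfn2 at 1353 ± 96.3 and Cyfip2 at 1165 ± 64.9. The other members were lower, with Abi2 at 482 ± 22.6, Baiap2 at 456 ± 23.7, Arhgap35 at 296 ± 13.6, Abi1 at 250 ± 26.9 and Wasf1 at 245 ± 20.04. Neighbours in this order were not always separated. The library ranges overlapped for Actg1 and Cfl1, Pfn2 and Cyfip2, Abi2 and Baiap2, Arhgap35 and Abi1, and Abi1 and Wasf1, although Actg1 was above Cfl1 in 15 of 15 libraries. Abi1 exceeded Wasf1 in 11 of 15.

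**Figure D1:**
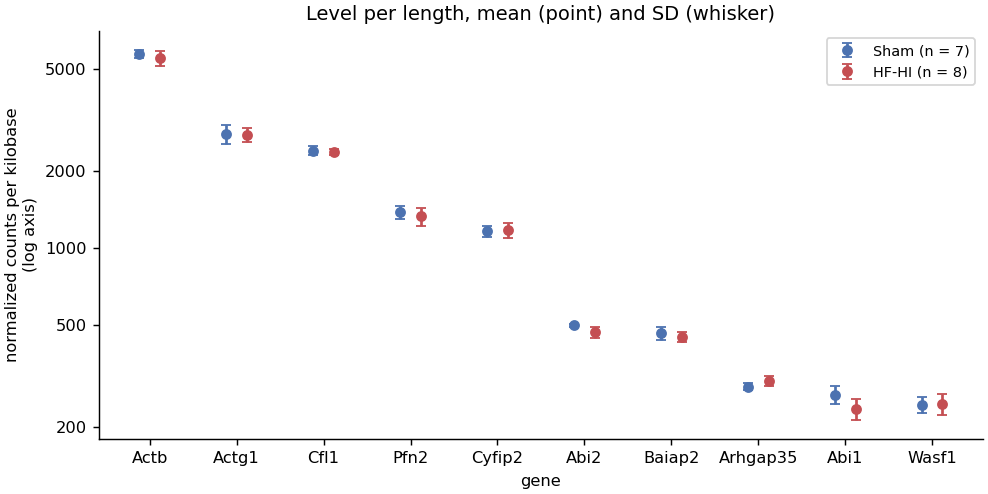
Normalized counts per kilobase (log axis) of the 10 genes, with points for the group mean and whiskers for the SD (Sham n = 7, HF-HI n = 8). Actb is highest at 5605 over all libraries and Wasf1 lowest at 245, and the order is nearly the same in both groups.

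Across members, 8 of 22 transcripts had an unadjusted p under 0.05 in limma, 3 higher and 5 lower in HF-HI. Among all listed transcripts 8.83% of transcripts did (4.94% higher, 3.9% lower), and nothing is read from the members' count because this contrast chose them. No transcript of the whole table passed Benjamini-Hochberg adjustment at 0.1 (0.0%), where the smallest adjusted p was 0.206 and the smallest among members 0.345. At the unadjusted threshold the whole table held 916 transcripts. The median VSD difference of the 22 was -0.011, against -0.0013 over all transcripts. The groups overlapped for every member, as for all but 0.154% of transcripts.

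**Figure D2:**
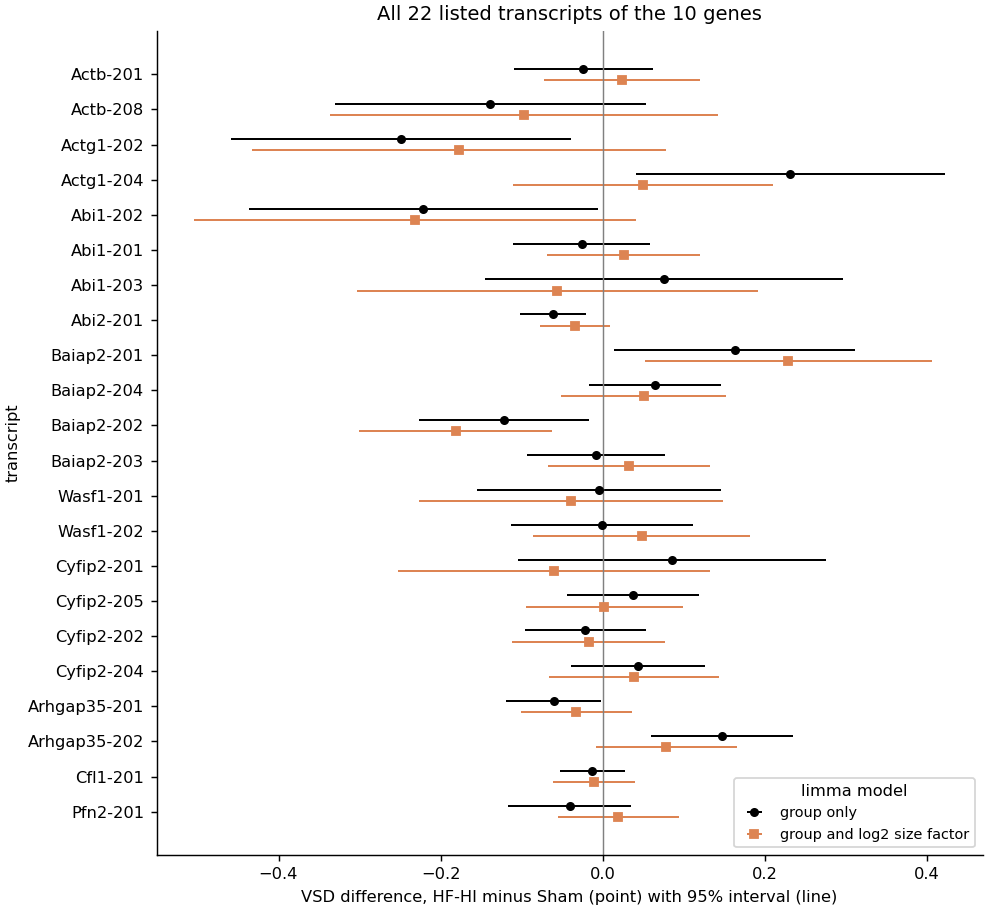
VSD difference, HF-HI minus Sham, for all 22 listed transcripts (points) with 95% intervals (lines), from limma with group alone (black circles) or with log2 size factor added (orange squares). Adding depth moves Actg1-204 from 0.23 to 0.05 and Baiap2-202 from -0.12 to -0.18.

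Actg1 codes for gamma-actin, a cytoplasmic actin found in nearly every cell. It lies on the minus strand of chromosome 11 at 120345690 to 120348542, and 2 of its 9 annotated transcripts were listed, both coding for the same protein. Actg1-202 (ENSMUST00000071555) has 6 exons and 1952 bases. Actg1-204 (ENSMUST00000106215) has 5 exons and 1827 bases, all of them contained in Actg1-202. The 125 bases found only in Actg1-202 are all that separates the pair. Of these, 124 lie upstream of the coding sequence, at whose first base Actg1-204 is annotated to begin, and 1 lies at the 3′ end.

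Actg1-202 ranged from 2130 to 3773 normalized counts in Sham (median 3139) and from 1730 to 2808 in HF-HI (median 2422). Every HF-HI library (8 of 8) had less than the Sham median and 3 had less than any Sham library, but the groups overlapped because Sham replicates 5 and 7 were also near 2130. The means were 3022 ± 676 (SD, n = 7) and 2307 ± 461 (SD, n = 8), a VSD difference of -0.25 (SE 0.098). Actg1-204 took the opposite course, from 1492 to 2787 in Sham (median 2390) and from 2236 to 3627 in HF-HI (median 2896). The means were 2265 ± 489 and 2892 ± 509, a VSD difference of 0.23 (SE 0.090). The highest HF-HI values were those of replicates 7 and 4, and the lowest Sham values those of replicates 4 and 1, which also held the highest Actg1-202 values.

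The sum over both transcripts was nearly the same in the groups, 5287 ± 460 in Sham and 5199 ± 338 in HF-HI, a log2 difference of -0.02 (95% interval -0.13 to 0.08), and -0.11 with log2 size factor in the model. The division of the reads was as follows. Actg1-204 took 43.2% ± 10.4 of the gene's reads in Sham (range 28.4% to 55.4%) and 55.6% ± 8.71 in HF-HI (range 45.1% to 67.7%). All 8 HF-HI libraries were above the Sham median share and 4 were above every Sham library.

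**Figure D3:**
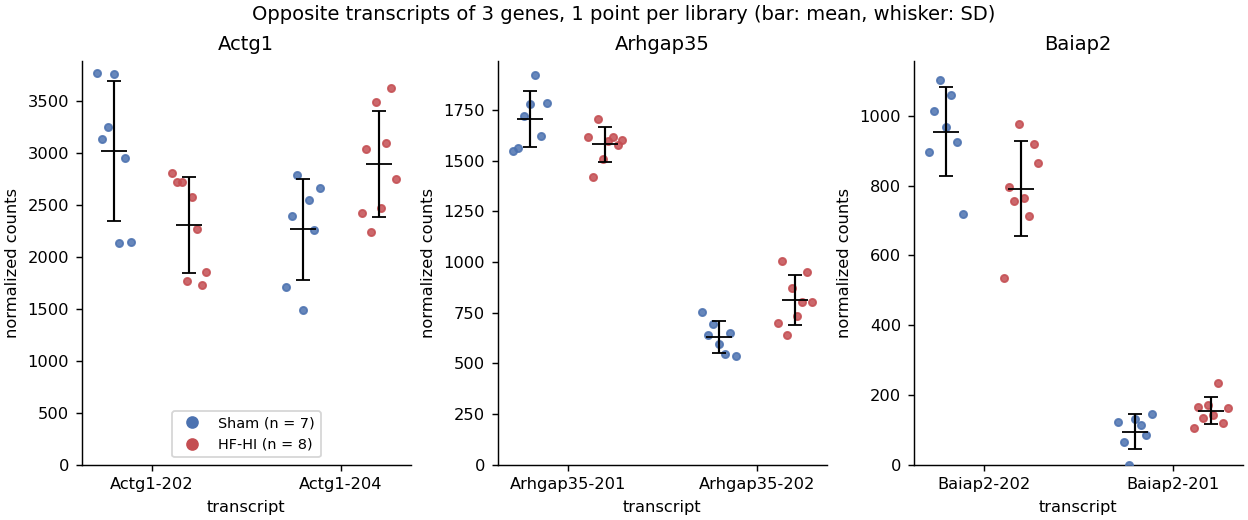
Normalized counts of the opposite transcripts of Actg1, Arhgap35 and Baiap2, with 1 point per library, a bar for the mean and a whisker for the SD (Sham n = 7, HF-HI n = 8). In each gene 1 transcript has the lower and the other the higher mean in HF-HI, and the groups overlap throughout.

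Upstream of Actg1, the promoter window from RefSeq (GRCm38.p6) holds a CArG box, the element bound by serum response factor, which is known to drive actin genes. It is shown because only 1 of the 8 members with a promoter in that table had this motif. Actb and Abi2 were not searched, as they had no entry in it. The 203 bases before the annotated start of Actg1-202, chr11:120348543-120348745 on the minus strand, are given with the box in capitals.
Actg1 promoter: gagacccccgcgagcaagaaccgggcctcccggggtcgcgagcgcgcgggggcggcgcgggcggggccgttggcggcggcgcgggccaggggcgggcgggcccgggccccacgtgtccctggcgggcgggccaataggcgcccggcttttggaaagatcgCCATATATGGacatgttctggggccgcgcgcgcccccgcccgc
The motif was searched on both strands by its name, CArG, as 2 C, 6 A or T and 2 G, and the match begins 90 bases before the RefSeq start. Such a match was present in 535 of 32851 promoter windows (1.63%), and in 4 of 97 companion genes. It is a match of letters and not a measured binding site.

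Arhgap35, the GTPase-activating protein, showed the same kind of split. The gene lies on the minus strand of chromosome 7 at 16493719 to 16614993, and both of its annotated transcripts were listed, with the same coding sequence of 4497 bases. Arhgap35-202 (ENSMUST00000171937, 8 exons, 6251 bases) is wholly contained in Arhgap35-201 (ENSMUST00000075845, 7 exons, 9147 bases), which has 2896 bases of its own. Arhgap35-202 ranged from 537 to 754 normalized counts in Sham (median 638) and from 638 to 1006 in HF-HI (median 803). All 8 HF-HI libraries were above the Sham median and 5 were above every Sham library. Its means were 631 ± 78.7 and 813 ± 125, a VSD difference of 0.15 (SE 0.041).

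Arhgap35-201 was the more abundant transcript, at 1549 to 1921 in Sham (median 1719) and 1420 to 1705 in HF-HI (median 1598). HF-HI was under the Sham median of Arhgap35-201 in 8 of 8 libraries. The means were 1704 ± 136 and 1579 ± 84.5, a VSD difference of -0.06 (SE 0.028). The share of Arhgap35-202 was 27.1% ± 3.77 in Sham and 33.9% ± 4.52 in HF-HI, while the gene sum was 2335 ± 91.0 and 2392 ± 67.0, a log2 difference of 0.03 (95% interval -0.03 to 0.09). That sum does not account for transcript length. Per kilobase the gene was at 287 ± 9.63 in Sham and 303 ± 12.9 in HF-HI. On that scale 5 of 8 HF-HI libraries were above every Sham library.

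Baiap2, the adaptor that curves membranes and binds Rac and WAVE, had 4 of 9 annotated transcripts listed, on the plus strand of chromosome 11 at 119942763 to 120006782. They differ in an internal coding segment and in how the coding sequence ends. The ends are shown because they distinguish Baiap2-201 from Baiap2-202, the transcripts with opposite values, and the segment because it distinguishes Baiap2-203 from the other 3. Capitals in the first line mark 120 bases, chr11:119996889-119997008 on the plus strand, present in Baiap2-202 and absent from Baiap2-203. In the other lines they mark the coding bases, stop codon excluded, after the last base common to all 4.
Baiap2-202: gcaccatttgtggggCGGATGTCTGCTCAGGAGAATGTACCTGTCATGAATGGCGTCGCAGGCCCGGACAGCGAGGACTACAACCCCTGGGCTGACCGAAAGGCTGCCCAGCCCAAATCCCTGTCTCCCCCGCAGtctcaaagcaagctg
Baiap2-201 end: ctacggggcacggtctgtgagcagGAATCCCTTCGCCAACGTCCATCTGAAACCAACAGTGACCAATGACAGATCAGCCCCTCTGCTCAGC
Baiap2-202 end: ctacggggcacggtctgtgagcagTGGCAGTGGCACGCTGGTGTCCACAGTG
Baiap2-203 end: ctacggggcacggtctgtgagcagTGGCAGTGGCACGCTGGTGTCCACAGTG
Baiap2-204 end: ctacggggcacggtctgtgagcagG
Baiap2-202 and Baiap2-203 share the same end, and neither has a base that no other listed transcript holds, while Baiap2-201 has 424 and Baiap2-204 has 487.

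Baiap2-202 (ENSMUST00000075180), the main transcript, ranged from 718 to 1102 normalized counts in Sham (median 967) and from 535 to 977 in HF-HI (median 780). HF-HI was below the Sham median in 7 of 8 libraries, with HF-HI replicate 1 lowest. The means were 955 ± 127 and 790 ± 136, a VSD difference of -0.12 (SE 0.049). Baiap2-201 (ENSMUST00000026436) was much lower, from 0 to 146 in Sham (median 113) and from 107 to 234 in HF-HI (median 153). The 0 belonged to Sham replicate 3, where a count of 0 allows up to 3.67 normalized counts, a limit for counting error only. Its means were 94.7 ± 49.9 and 155 ± 39.3, a VSD difference of 0.16 (SE 0.070). No listed transcript had a mean below 108 over the 15 libraries, and the Sham mean of Baiap2-201 was under this value. Its listing therefore rested on its higher HF-HI values, which in part fixed the direction of its difference. Baiap2-204 (ENSMUST00000106231) averaged 168 ± 24.4 and 209 ± 61.4, and Baiap2-203 (ENSMUST00000103021) 374 ± 46.1 and 370 ± 77.7.

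As a share of the gene's reads, Baiap2-202 took 59.8% ± 5.21 in Sham and 51.7% ± 7.44 in HF-HI, with all 8 HF-HI libraries below the Sham median. Baiap2-201 took 6.07% ± 3.26 and 10.1% ± 2.49, with all 8 above it. The gene sum was 1591 ± 105 in Sham and 1524 ± 62.1 in HF-HI, a log2 difference of -0.06 (95% interval -0.15 to 0.02).

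Transcripts of a gene were also compared over the libraries. After group means were subtracted, log2 normalized counts of Actg1-202 and Actg1-204 ran opposite to each other over the 15 libraries (Pearson r = -0.72, Spearman rho = -0.78), as did the Arhgap35 pair (r = -0.78, rho = -0.85). The Wasf1 pair, whose group means were nearly equal for both transcripts, gave r = -0.75 (rho = -0.71). Of 19 pairs within the 6 genes with several listed transcripts, 14 had a negative r. The highest was 0.41, for Cyfip2-201 and Cyfip2-205. Among pairs with 1 transcript wholly contained in the other, r ranged from -0.78 (Arhgap35) to 0.03 (Cyfip2-202 in Cyfip2-205). Baiap2-203 in Baiap2-204 gave r = 0.02. The points of a pair share libraries and the read assignment, whose part in these values was not tested, and they are descriptions.

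Depth differed between the groups, and its relation to the shares was examined within each group. Within HF-HI, the share of Actg1-204 had a negative correlation with the log2 size factor (r = -0.71, exact permutation p = 0.0615, adjusted over 6 relations 0.185, rho = -0.60, exact permutation p = 0.132, adjusted 0.396, n = 8). Without replicates 4 and 7, the farthest from the median depth, r was -0.23, so the relation rested on those libraries. For Arhgap35-202 it was r = -0.77 (exact permutation p = 0.0322, adjusted 0.185, rho = -0.64, exact permutation p = 0.0962, adjusted 0.396, n = 8), and -0.79 without them. Within Sham the values were -0.31 for Actg1-204 and -0.22 for Arhgap35-202 (exact permutation p = 0.528 and 0.633, adjusted 0.681 for both, rho = -0.39 for both, exact permutation p = 0.396, n = 7). Without replicates 2 and 3 they were -0.65 and 0.24. The share of Baiap2-202 gave -0.23 in Sham and -0.49 in HF-HI (exact permutation p = 0.681 and 0.212, rho = -0.39 and -0.48, exact permutation p = 0.396 and 0.243), and 0.70 and 0.086 without the 2 farthest libraries. No relation passed adjustment over the 6. VSD was also set against log2 size factor over the 15 libraries, after group means were subtracted. The r was -0.75 for Actg1-204 and -0.63 for Arhgap35-202, sizes reached by 1.05% and 4.71% of all transcripts. It was 0.27 for Actg1-202, 0.40 for Arhgap35-201, -0.45 for Baiap2-202 and 0.35 for Baiap2-201 (45.0%, 24.7%, 18.4% and 31.3%). Those values are descriptions.

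With log2 size factor in the model, the VSD difference was -0.18 for Actg1-202 (95% interval -0.43 to 0.08), 0.05 for Actg1-204 (-0.11 to 0.21), 0.08 for Arhgap35-202 (-0.01 to 0.17) and -0.03 for Arhgap35-201 (-0.10 to 0.04). In the same model the differences of Baiap2-202 and Baiap2-201 were -0.18 (-0.30 to -0.06) and 0.23 (0.05 to 0.41). The 3 shallowest libraries were all HF-HI, so this model cannot fully tell depth and group apart. The contrast chose these genes, so the intervals are descriptions and not tests. With group alone and each library left out, the Baiap2-201 difference ranged from 0.09 to 0.19, smallest without Sham replicate 3. Without the 3 HF-HI libraries of a size factor under 0.8 (replicates 2, 4 and 7), Actg1-202 differed by -0.19, Actg1-204 by 0.13, Arhgap35-202 by 0.09, Baiap2-202 by -0.17 and Baiap2-201 by 0.16 VSD.

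**Figure D4:**
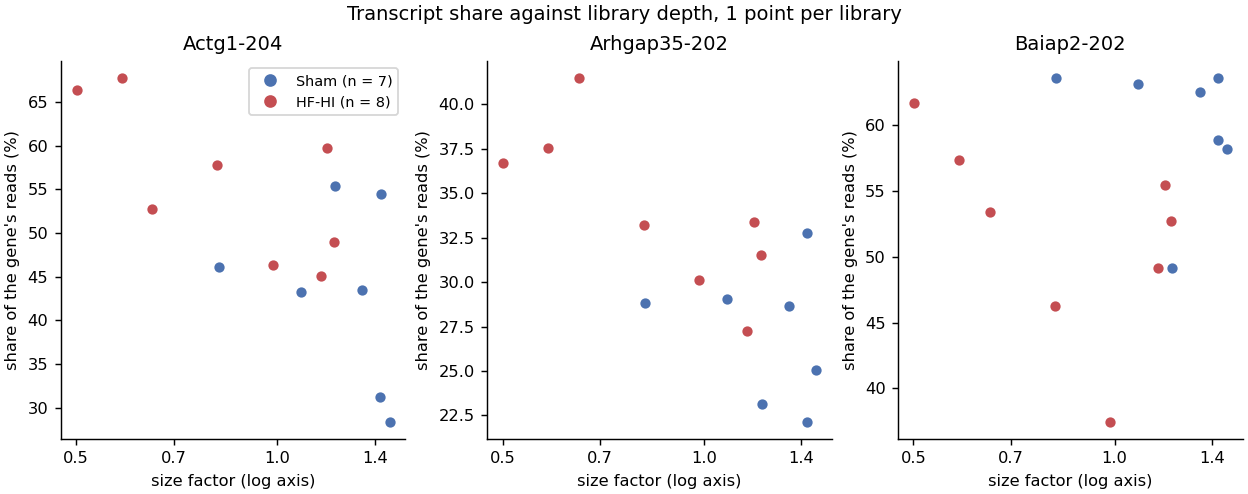
Share of the gene's reads on Actg1-204, Arhgap35-202 and Baiap2-202 (%) against library size factor (log axis), 1 point per library (Sham n = 7, HF-HI n = 8). The 3 shallowest libraries, all HF-HI, include the 3 highest shares of Arhgap35-202 and the 2 highest of Actg1-204.

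Actb codes for beta-actin, the other cytoplasmic actin, and lies on the minus strand of chromosome 5 at 142903115 to 142906754. Its main transcript, Actb-201 (ENSMUST00000100497), carried 94.3% ± 2.12 of the gene's reads in Sham and 95.5% ± 1.998 in HF-HI. It ranged from 8910 to 10527 normalized counts in Sham (median 9858) and from 8707 to 10420 in HF-HI (median 9720). Its means were 9794 ± 571 and 9609 ± 654, and the gene sum differed by -0.04 on the log2 scale (95% interval -0.12 to 0.04). Actb-208 (ENSMUST00000171419), a short transcript of 930 bases, averaged 587 ± 201 in Sham and 455 ± 201 in HF-HI.

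Abi1 and Abi2 code for the Abl interactors, adaptor subunits of the WAVE complex. Abi1 lies on the minus strand of chromosome 2 at 22940073 to 23040241, with 3 of 15 annotated transcripts listed. Of the genes with a listed sum, Abi1 had the largest group difference among members on the log2 scale. It averaged 769 ± 51.8 normalized counts in Sham (699 to 867, median 764) and 668 ± 73.9 in HF-HI (570 to 793, median 657). HF-HI was below the Sham median in 7 of 8 libraries and below every Sham library in 5. The log2 difference was -0.20 (95% interval -0.33 to -0.07), and -0.24 with depth in the model. Over all gene sums 9.43% had an unadjusted p under 0.05 (5.19% higher, 4.24% lower) and 0.0129% passed adjustment. Among members the sums of Abi1 and Abi2 were under 0.05, both lower in HF-HI, with a smallest adjusted p of 0.291.

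Most of the Abi1 difference lay in Abi1-202 (ENSMUST00000091394), which carries an 87-base coding exon that Abi1-201 and Abi1-203 lack. It is shown in capitals, with 15 coding bases of each neighbouring exon, because it separates that transcript from the others (chromosome 2, minus strand, 5′ to 3′).
Abi1-202: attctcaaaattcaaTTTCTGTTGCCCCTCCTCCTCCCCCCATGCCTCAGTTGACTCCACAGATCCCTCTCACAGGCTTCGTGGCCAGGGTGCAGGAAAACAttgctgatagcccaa
Abi1-202 ranged from 101 to 311 normalized counts in Sham (median 215) and from 0 to 254 in HF-HI (median 102). HF-HI replicate 8 was at 0, which allows up to 2.52, and HF-HI replicate 2 was at 15.4. The means were 211 ± 73.2 and 120 ± 96.2, a VSD difference of -0.22 (SE 0.10). Abi1-201 (ENSMUST00000078977), the most abundant, averaged 403 ± 81.7 and 379 ± 55.1, and Abi1-203 155 ± 110 and 169 ± 73.2, with the groups overlapping for both.

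Abi2, on the plus strand of chromosome 1 at 60409619 to 60481158, had 1 of 12 annotated transcripts listed. Abi2-201 (ENSMUST00000052332) stood within 2823 to 2924 normalized counts in Sham (median 2865), a narrow spread, and ranged from 2488 to 2875 in HF-HI (median 2702). In HF-HI, 6 of 8 libraries were below every Sham library, with replicates 2 and 7 lowest. The means were 2872 ± 36.0 and 2694 ± 127, a VSD difference of -0.06 (SE 0.019), and -0.03 (95% interval -0.08 to 0.01) with depth in the model.

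**Figure D5:**
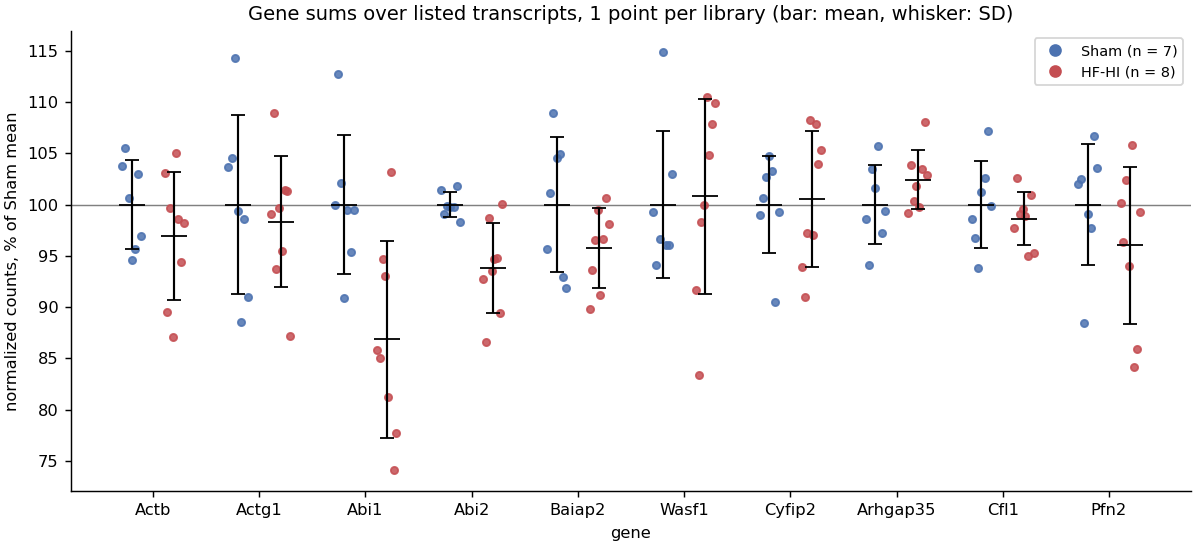
Normalized counts summed over listed transcripts, as a percentage of the Sham mean of each gene, with 1 point per library, a bar for the mean and a whisker for the SD (Sham n = 7, HF-HI n = 8). Abi1 is lowest in HF-HI at 668 against 769 normalized counts, and the Actg1, Arhgap35 and Cyfip2 sums overlap closely. The sums do not account for transcript length, and per kilobase Arhgap35 was at 287 in Sham and 303 in HF-HI.

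The remaining WAVE subunits among the members were close between groups. Wasf1 (WAVE1), the subunit that activates Arp2/3, had both annotated transcripts listed, on the plus strand of chromosome 10 at 40883475 to 40938570. Its main transcript, Wasf1-202 (ENSMUST00000105509), averaged 443 ± 79.0 in Sham and 446 ± 110 in HF-HI, and the gene sum differed by 0.01 on the log2 scale (95% interval -0.11 to 0.14). Wasf1-201 averaged 213 ± 77.7 and 215 ± 94.0.

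Cyfip2, the subunit through which Rac acts on the complex, had 4 of 5 annotated transcripts listed, on the minus strand of chromosome 11 at 46193850 to 46312859. Cyfip2-202 (ENSMUST00000093166) carried 86.8% ± 1.30 of its reads in Sham and 84.8% ± 3.16 in HF-HI. It averaged 6102 ± 281 normalized counts in Sham (5544 to 6356) and 5994 ± 407 in HF-HI (5170 to 6432). The gene sum differed by 0.00 (95% interval -0.08 to 0.09). Cyfip2-201, Cyfip2-204 and Cyfip2-205 averaged 291 to 339 in Sham and 323 to 382 in HF-HI.

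The filament turnover genes had 1 listed transcript each. Cfl1-201 (ENSMUST00000116560; chromosome 19, plus strand, 5490485 to 5494029) averaged 2752 ± 118 in Sham (2583 to 2950, median 2747) and 2714 ± 71.7 in HF-HI (2614 to 2823, median 2723). Pfn2-201 (ENSMUST00000066882; chromosome 3, minus strand, 57841895 to 57848079) averaged 3237 ± 190 (2864 to 3455, median 3301) and 3108 ± 249 (2723 to 3426, median 3165). The log2 differences of these genes were -0.02 (95% interval -0.08 to 0.04) and -0.05 (-0.16 to 0.05).

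The wider actin machinery was examined in a list of 119 companion genes, of which 103 were listed with 167 transcripts. In limma 12 of these transcripts (7.19%) had an unadjusted p under 0.05, 5 with the higher and 7 with the lower level after impact, near the 8.83% of the whole table. None passed adjustment, with a smallest adjusted p of 0.356. Their median VSD difference was 0.0017. Among the other WAVE subunits none of 6 transcripts passed, namely Nckap1-201, Nckap1-202, Brk1-201, Cyfip1-201, Wasf2-201 and Wasf3-201. Brk1-201 averaged 803 ± 45.1 in Sham and 758 ± 59.4 in HF-HI.

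Over all transcripts, 4.94% were higher and 3.9% lower at an unadjusted p under 0.05. Of 17 transcripts of the Arp2/3 complex and its other activators, 2 were higher. Arpc4-201, an Arp2/3 subunit, averaged 181 ± 45.5 in Sham and 263 ± 61.6 in HF-HI (VSD difference 0.13, limma unadjusted p = 0.00699, adjusted p = 0.402, above the Sham median in 7 of 8). Cttn-201, which codes for cortactin, a stabilizer of branches, averaged 481 ± 32.5 and 532 ± 49.2 (unadjusted p = 0.0376, adjusted p = 0.539). Among 26 turnover transcripts 1 was higher and 1 lower. Ssh1-204, from the slingshot phosphatase that activates cofilin, averaged 159 ± 12.1 and 193 ± 21.2 (VSD difference 0.06, unadjusted p = 0.00416, adjusted p = 0.356), and Cfl2-201, muscle cofilin, 663 ± 29.4 and 605 ± 53.7 (unadjusted p = 0.0240, adjusted p = 0.504).

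Arhgap5-201, from the close relative of Arhgap35, averaged 2554 ± 131 in Sham and 2380 ± 121 in HF-HI, below the Sham median in 8 of 8 libraries (VSD difference -0.06, unadjusted p = 0.0187, adjusted p = 0.476). Without the libraries of a size factor under 0.8 its difference was -0.04. The exchange factors Arhgef7-205 (515 ± 43.8 and 583 ± 51.8, unadjusted p = 0.0149, adjusted p = 0.450) and Dock3-201 (3998 ± 141 and 4214 ± 184, unadjusted p = 0.0310, adjusted p = 0.525) were higher. Against 4.94% higher and 3.9% lower over all transcripts, the capping and crosslinking list of 43 transcripts held none higher and 4 lower. Among the 4 were Eps8-201, a barbed-end capper (145 ± 56.5 and 92.8 ± 36.0, unadjusted p = 0.0301, adjusted p = 0.525), Actn2-201, an alpha-actinin (136 ± 27.5 and 101 ± 31.2, unadjusted p = 0.0325, adjusted p = 0.525), and Ppp1r9b-201, which codes for the spine protein spinophilin (3170 ± 228 and 2873 ± 301, unadjusted p = 0.0426, adjusted p = 0.555). Ppp1r9b-202, the other listed transcript of Ppp1r9b, went the opposite way, at 1318 ± 208 in Sham and 1570 ± 338 in HF-HI (limma unadjusted p = 0.0936, adjusted p = 0.627). The HF-HI means of Eps8-201 and Actn2-201 lay below 108, the lowest mean over the 15 libraries of any listed transcript. Their listing therefore rested on their higher Sham values. None of 12 formin and Ena/VASP transcripts and neither of 2 I-BAR transcripts passed, and no other actin gene of the list (4 genes) was listed.

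The named companion calls were not equally firm (libraries are given by group and replicate number). Ssh1-204, Arpc4-201 and Arhgef7-205 kept an unadjusted p under 0.05 in 15 of 15 fits with a library left out and with log2 size factor in the model. Arhgap5-201, Cfl2-201, Eps8-201, Dock3-201, Actn2-201, Cttn-201 and Ppp1r9b-201 lost it with log2 size factor in the model. Cttn-201 kept it in only 6 of 15 fits with a library left out (VSD difference 0.04 to 0.06), losing it when Sham 1, 4, 5 or 6 was omitted and likewise with HF-HI 2, 4, 5, 6 or 7. Ppp1r9b-201 kept it in 7 of 15 (-0.12 to -0.07), losing it when Sham 1, 2, 3, 5 or 6 was omitted and likewise with HF-HI 4, 7 or 8. Actn2-201 kept it in 8 (-0.10 to -0.06), losing it when Sham 1, 2, 3 or 6 was omitted and likewise with HF-HI 2, 4 or 7. Dock3-201 kept it in 10 (0.04 to 0.06), losing it when Sham 2 or 5 was omitted and likewise with HF-HI 4, 7 or 8. Eps8-201 kept it in 12 (-0.14 to -0.08), losing it when Sham 5 was omitted and likewise with HF-HI 2 or 6, and Cfl2-201 in 14 (-0.06 to -0.04), losing it without Sham replicate 6.

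The genes whose sums varied most like each actin over the libraries differed between Actb and Actg1. After group means were subtracted, the highest Pearson r with Actb among 7739 genes over 15 libraries were those of Actr3 (0.93), which codes for the Arp3 subunit of the Arp2/3 complex, Enpp5 (0.88), Atp5mpl (0.87), Mgat1 (0.86) and Aldh2 (0.86). For Actg1 they were Wdr18 (0.92), Tmem132a (0.91), Bckdk (0.90), Ddx24 (0.87) and Rpph1 (0.87), the last an abundant noncoding RNA that forms part of ribonuclease P. Actb and Actg1 gave r = -0.03 with each other. These libraries share their depth differences, and the values are descriptions.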

How the data were processed

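Cortical total RNA (7 Sham and 8 HF-HI libraries) had been sequenced with a stranded kit. Per the labels and the study's methods, the authors aligned reads to mm10 with STAR, assigned them to transcripts with eXpress and normalized with DESeq2, and the versions of STAR and eXpress and the annotation release are not given in the sources used here. The authors deposited variance-stabilized values on a log2 scale. The transformation was inverted in closed form, and 100% of the values came out as whole reads within 0.1 read, which gave size factors and normalized counts. These reads are the authors' assignments between overlapping transcripts, so the floors given for a count of 0 cover counting error only. Identifiers were matched to GENCODE M21 (10241 matched, 129 did not), whose coordinates are on the same assembly.

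Groups were compared with limma 3.58.1 in R 4.3.3 on the deposited values of all 10370 transcripts (group only, eBayes with trend, two-sided, Benjamini-Hochberg, adjusted threshold 0.1), and with voom and limma on reads summed over 7740 genes. The code was tested on simulated data. The labels do not say whether libraries came from separate animals, and p-values measure the spread between them. Members, gene lists and tests were chosen with earlier results of these data known. All member transcripts are accounted for, those of Actg1, Baiap2 and Arhgap35 in full and for other genes the most abundant and any at an unadjusted p under 0.05. Up to 5 companion transcripts per direction with the smallest p and the 5 gene sums most like each actin are named. The other listed transcripts of Ppp1r9b, Arhgef7 and Dock3 are named as well. The count of 1 companion list is not reported here. Alternatives were other priors, scalings, filters, scales, depth terms, library weights, a replicate block and each library left out.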

Additional observations from a re-analysis of the deposited data

Results flagged for a closer look

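In 3 of 58 group tests of members, 1 library lay far from the others of its group, which chance gives in about 1 of 20 groups. Actb-208 was at 1019 normalized counts in Sham replicate 5, and the nearest Sham library was at 613. The gene sum of Wasf1 was at 753 normalized counts in Sham replicate 4, with the nearest at 675. The gene sum of Cyfip2 was at 6359 normalized counts in Sham replicate 6, with the nearest at 6956.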

How the results depend on the processing

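Over the whole table, the 916 transcripts with unadjusted p below 0.05 became 533 with log2 size factor as a covariate and ranged from 748 to 987 as each library was left out. Centring each library moved its split from 512 higher and 404 lower to 473 and 437. The member count of 8 became 2 with that covariate, 3 in libraries with a size factor above 0.8 and 5 with array weights, and ranged from 5 to 8 as each library was left out, with 5 when Sham replicate 3, Sham replicate 4, HF-HI replicate 2 or HF-HI replicate 4 was missing. The companion count of 12 became 6 and 7 under the depth alternatives and ranged from 7 (without HF-HI replicate 7) to 18. The 2 member gene sums became 1 (Abi1) with a size factor above 0.8 and stayed at 2 as each library was left out. The members were chosen by this contrast in these same libraries, so their counts of fits are descriptions and not support. Directions of the 8 member transcripts were kept in all fits run. Baiap2-202 stayed under 0.05 in 11 of 11 settings other than leaving out a library, and in 13 of 15 with a library left out (not without Sham replicate 3 or 5). Actg1-204 and Arhgap35-202 stayed so in 15 of 15 with a library left out, Actg1-202 in 13 (not without Sham replicate 1 or 4), Baiap2-201 in 10, Arhgap35-201 in 6 and Abi1-202 in 5. In the settings other than leaving out a library, Baiap2-201 and Abi1-202 stayed under 0.05 in 5 of 10 and Arhgap35-201 in 6 of 11. Actg1-202 and Actg1-204 stayed so in 9 of 11 of them, and Arhgap35-202 and Abi2-201 in 10 of 11. The Actg1 gene sum differed by -0.11 with the depth covariate, against -0.02. Why depth moves these values was not tested.

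The groups share replicate numbers, but same-numbered libraries did not deviate together (correlations -0.138 to 0.0905, and 1 of 7 Sham libraries correlated best with its own number). With the replicate block the counts were 891 over all transcripts, 8 for members, 15 for companions and 2 for member gene sums. Transcripts with few reads carry the least precision, since a count of 0 allows up to 3 reads.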
